A study of Mus musculus with 12 samples.

Results

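The interferon-inducible IRG and GBP GTPases were followed in mouse bone marrow-derived macrophages through 10 genes. They are Irgm1, Irgm2, Igtp, Iigp1, Tgtp1 and Tgtp2 of the immunity-related GTPases (IRG), and Gbp2, Gbp3, Gbp5 and Gbp7 of the guanylate-binding proteins (GBP). The genes were picked by gene name from the 54532 genes of the deposited count table, by a list drawn up with earlier results of these data known, and all 10 passed the filter on low counts that left 13800 genes for testing. The macrophages were grown from marrow of male mice aged 8 weeks in medium with M-CSF at 50 ng/mL, which makes marrow precursors become macrophages. The 4 groups held 3 libraries each, 12 in all, and are given here as cKO Pg, cKO control, cHet Pg and cHet control. The genotypes are Itga9-Lyz2-cKO and Itga9-Lyz2-cHet in the labels, and the Pg libraries came from cultures given Pg, as the labels write it, at an MOI (multiplicity of infection) of 1:20 for 2 hours, while no stimulus is named for the control cultures. Itga9 encodes the alpha chain of the integrin named in the series title, an adhesion receptor, and Lyz2 is the macrophage lysozyme gene. The labels do not describe the alleles, the exons targeted or what the Lyz2 element drives, and no wild-type group was given. Whether the 3 libraries of each group stand for different animals is not stated either, so a p-value here reflects only how much these libraries vary, and that variation may be technical.

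IRG and GBP proteins are GTPases that macrophages and many other cells make in large amounts after exposure to interferons, above all interferon gamma. The effector IRGs load onto the vacuoles that surround intracellular bacteria and parasites and disrupt them, while the regulatory IRGM proteins (Irgm1, Irgm2 and Igtp) sit on the cell's own membranes and hold the effectors in the inactive form. GBPs coat damaged vacuoles and bacteria in the cytosol and help to bring caspases and inflammasomes to them. Transcription of both families is driven through 2 kinds of DNA element, the interferon-stimulated response element (ISRE) and the gamma-activated site (GAS).

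The start-site windows of the genes are shown first, because both elements are short enough to be read in them. RefSeq windows on GRCm38.p6, each running from 250 bases before to 50 bases after an annotated start, were found for 9 of the 10 genes, with 2 windows for Gbp3; Iigp1 had none. The ISRE core was searched as GAAA, any 2 bases and GAAA again, and the GAS core as TTC, any 3 bases and GAA, on both strands; matches of the 2 patterns can overlap. Of the 6 windows printed, Irgm1, Irgm2 and Igtp are the 3 regulators, Tgtp2 is an effector, and Gbp3 and Gbp5 are the GBPs with the largest fall and with the rise described further on. Capitals mark every base inside a match, and each sequence runs 5′ to 3′ on the strand of its gene.
Irgm1 (chr11:48871371-48871670, minus strand): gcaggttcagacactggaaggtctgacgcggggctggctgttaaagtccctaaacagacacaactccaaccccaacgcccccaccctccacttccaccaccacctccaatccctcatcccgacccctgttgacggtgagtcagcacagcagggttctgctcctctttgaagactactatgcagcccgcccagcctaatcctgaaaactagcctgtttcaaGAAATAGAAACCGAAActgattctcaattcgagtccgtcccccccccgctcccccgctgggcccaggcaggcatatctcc
Irgm2 (chr11:58214727-58215026, plus strand): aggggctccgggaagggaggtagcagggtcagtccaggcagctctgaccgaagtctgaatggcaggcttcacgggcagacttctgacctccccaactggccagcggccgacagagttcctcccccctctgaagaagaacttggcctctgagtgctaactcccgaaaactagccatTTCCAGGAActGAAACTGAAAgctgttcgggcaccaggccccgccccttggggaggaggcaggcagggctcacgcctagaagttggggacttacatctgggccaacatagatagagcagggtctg
Igtp (chr11:58199306-58199605, plus strand): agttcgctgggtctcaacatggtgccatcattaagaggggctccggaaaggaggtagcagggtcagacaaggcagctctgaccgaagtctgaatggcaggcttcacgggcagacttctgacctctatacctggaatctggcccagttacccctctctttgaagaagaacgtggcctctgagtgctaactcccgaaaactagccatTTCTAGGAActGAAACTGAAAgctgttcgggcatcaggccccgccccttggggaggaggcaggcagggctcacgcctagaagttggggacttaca
Tgtp2 (chr11:49064163-49064462, minus strand): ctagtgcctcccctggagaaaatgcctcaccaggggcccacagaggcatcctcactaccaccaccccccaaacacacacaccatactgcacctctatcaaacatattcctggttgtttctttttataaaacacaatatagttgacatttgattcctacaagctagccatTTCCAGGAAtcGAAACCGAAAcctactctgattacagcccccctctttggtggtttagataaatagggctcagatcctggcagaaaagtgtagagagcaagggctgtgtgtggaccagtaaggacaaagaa
Gbp3 (chr3:142559794-142560093, plus strand): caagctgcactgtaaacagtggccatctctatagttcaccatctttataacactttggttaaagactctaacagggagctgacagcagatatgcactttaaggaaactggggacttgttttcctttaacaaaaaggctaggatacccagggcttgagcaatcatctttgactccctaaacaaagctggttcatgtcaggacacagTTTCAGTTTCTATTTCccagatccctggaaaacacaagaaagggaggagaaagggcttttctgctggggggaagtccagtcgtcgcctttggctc
Gbp5 (chr3:142496684-142496983, plus strand): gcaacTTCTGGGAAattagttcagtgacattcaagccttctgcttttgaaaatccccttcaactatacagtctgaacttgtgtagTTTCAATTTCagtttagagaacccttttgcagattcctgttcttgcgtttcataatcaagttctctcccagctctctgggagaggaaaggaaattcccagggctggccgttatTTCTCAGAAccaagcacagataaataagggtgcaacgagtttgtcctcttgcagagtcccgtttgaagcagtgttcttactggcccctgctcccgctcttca

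The ISRE core was present in the windows of 9 of 9 genes that could be searched, against 3.99% of all 27025 genes with a window. Counted by window, 9 of 10 windows of the 9 genes held it, against 3.44% of 32851 windows, the exception being the other window of Gbp3, which is not printed. The GAS core was present in 6 of 9 genes (Irgm2, Igtp, Tgtp1, Tgtp2, Gbp5 and Gbp7), against 9.55% of all genes. In Irgm2, Igtp, Tgtp1 and Tgtp2 the GAS core ended exactly 2 bases before the ISRE core began, as the printed windows of Irgm2, Igtp and Tgtp2 show. That arrangement, which was chosen for a count only after these sequences had been read, occurred in 5 of the 27025 genes (0.0185%). The fifth was Gm12185, which overlaps Tgtp1 on the same strand. Its 5′ end, at 48992226, lies inside the Tgtp1 window, so its match may be the same bases as that of Tgtp1. These 4 genes include near-copies: the windows of Irgm2 and Igtp were 72.8% identical in a global alignment and those of Tgtp1 and Tgtp2 66.8% identical. Irgm1 and Gbp3 each held 2 overlapping ISRE cores and no GAS core. The ISRE core of Gbp5 lay farther from the start, at positions -165 to -156, than those of the other genes, which all lay between -77 and -15. Among the 24 type I interferon-stimulated antiviral genes examined further on, 11 of the 18 with a window (61.1%) held the ISRE core. The share was 3 of 7 (42.9%) among the other IRG and GBP genes, 2 of 11 (18.2%) among other genes induced by interferon gamma and 1 of 15 (6.67%) among the genes whose proteins act at vacuoles, which are also examined further on. A match describes letters in a window, not a bound site.

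**Figure D1:**
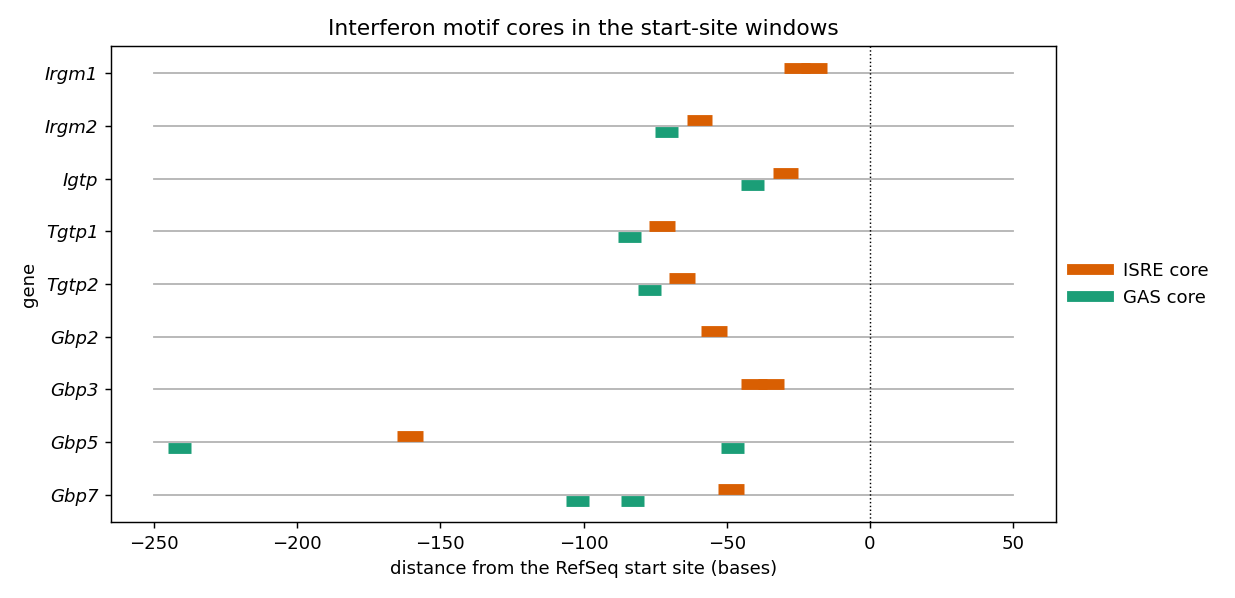
ISRE cores (orange) and GAS cores (green) in the start-site windows of 9 genes, with the distance from the RefSeq start in bases on the horizontal axis and 1 gene per line; for Gbp3 the window that holds matches is drawn. The ISRE core lies between positions -77 and -15 in 8 genes and at positions -165 to -156 in Gbp5, and in Irgm2, Igtp, Tgtp1 and Tgtp2 a GAS core stands directly upstream of it.

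Library totals lay between 14527674 and 16793803 counts. TMM (trimmed mean of M-values) scaling factors were 0.906 to 0.931 in the 6 Pg libraries and 1.07 to 1.11 in the 6 control libraries, so the choice of scaling moves every Pg comparison by a common amount: with library size alone, the median of all tested genes shifted by -0.25 on the log2 scale in both Pg comparisons. Itga9 (ENSMUSG00000039115, chromosome 9, 118606690 to 118901003, plus strand, mm10) was lower in all 6 cKO than in all 6 cHet libraries, with a log2 difference of -1.46 ± 0.26 averaged over treatments (adjusted p 0.0118), and its reads remained in all 6 cKO libraries. Macrophage markers were abundant in all 12 libraries, and their summed level was 19200 to 22500 CPM in cKO Pg, 16600 to 19600 CPM in cKO control, 27200 to 32900 CPM in cHet Pg and 25600 to 29300 CPM in cHet control libraries. Lyz2 alone had means of 10100 and 9760 CPM in cKO Pg and cKO control, against 19500 and 19400 CPM in cHet Pg and cHet control. Of the 8 macrophage markers, 1 was lower in cKO in controls and 1 under Pg. The median log2 difference of the 8, cKO over cHet, was 0.01 in both. The 10 stromal markers summed to 35.8 to 69.2 CPM in cKO Pg and 32.7 to 60.9 CPM in cKO control, against 90.6 to 166 CPM in cHet Pg and 63.5 to 122 CPM in cHet control libraries. Fn1, at 30.5 to 128 CPM, made up most of the stromal sum in each group. Of the 7 stromal markers tested, 5 were lower in cKO both in controls and under Pg. Of all 13800 genes, 1.2% were lower under Pg, and 711 differed in either direction in controls. The median log2 difference of these 7, cKO over cHet, was -3.89 in controls and -3.16 under Pg. Lum was at 0 in all 12 libraries. Of the 10 markers of T and NK cells, which make interferon gamma, 8 were below 1 CPM in every library, and their sum, most of it Cd4 at 28.9 to 45.4 CPM, was 41.8 to 46.8 CPM in cKO Pg and between 30.8 and 38.7 CPM in the other 3 groups. The summed B cell, neutrophil and dendritic cell markers overlapped between all 4 groups, at 21.5 to 45.9, 416 to 718 and 125 to 157 CPM. Most of the dendritic cell sum was Bst2 at 113 to 144 CPM, which is also among the antiviral genes examined further on. Of the 7 dendritic cell markers, 2 rose with Pg in cHet and 3 in cKO, and 0 fell. Among all genes 18% and 16.9% rose. In such bulk RNA, fewer cells of a type and less RNA per cell cannot be told apart.

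All 10 genes had reads in every library. Their positions in mm10 fall into clusters: the 4 GBPs stand next to each other on chromosome 3 between 142493978 and 142638008, Irgm1 (48861968 to 48871683), Tgtp1 (48985327 to 48994172) and Tgtp2 (49057194 to 49064206) lie close together on chromosome 11, Igtp (58199556 to 58207591) and Irgm2 (58199618 to 58222782) overlap on the same chromosome, and Iigp1 (60376029 to 60392627) stands on chromosome 18. Igtp and Irgm2 share 162 exonic bases on the same strand, 8.01% of the exonic bases of Igtp and 4.39% of those of Irgm2, so a part of their reads can be assigned to either. Tgtp1 and Tgtp2 are a more serious case: their transcripts were 99.3% identical, and 83.3% and 80.4% of their 100-base stretches were also found in another gene, namely each other and Gm12185. For Gbp7 that share was 10.2%, shared with Gbp3 and Gm43802, a pseudogene with 0 counts, and it was 0.929% for Gbp3, 0.273% for Gbp5 and 0 for Irgm1, Iigp1 and Gbp2. How reads that map to several places were counted is not given in the sources used here, and Tgtp1, with 1 to 23 counts per library, and Tgtp2, with 33 to 330, are therefore uncertain as separate genes.

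On a per-length scale, CPM per kilobase of the gene length in the deposited table, GBPs were the most abundant of the group. In cHet control libraries Gbp2 led with 43.1 ± 1.42 CPM per kilobase (SD, n = 3 for all levels here), followed by Gbp5 with 36.2 ± 2.25 and Gbp3 with 27.9 ± 0.634. Irgm1 with 15.1 ± 2.63, Gbp7 with 14.6 ± 0.994, Irgm2 with 12.7 ± 1.8 and Igtp with 12.2 ± 3.15 CPM per kilobase followed, and neighbours among these 4 did not differ beyond their spread. Iigp1 with 3.25 ± 0.974 and Tgtp2 with 3.08 ± 0.777 also lay within each other's spread, and Tgtp1 was lowest with 0.243 ± 0.0311 CPM per kilobase. In cKO Pg libraries, the group with the lowest levels, Gbp2 (36.3 ± 2.21) and Gbp5 (30.1 ± 2.91) again led, while Irgm2 stood at 3.84 ± 0.179 and Tgtp2 at 0.916 ± 0.181 CPM per kilobase. The summed level of the 10 genes was 441, 449 and 504 CPM in the cKO Pg libraries, 933, 720 and 771 CPM in cKO control, 617, 603 and 672 CPM in cHet Pg and 735, 649 and 720 CPM in cHet control libraries. The cKO Pg libraries were thus the lowest of the 12, and the highest was cKO control library 1, which lay above its group mean for 10 of 10 genes.

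**Figure D2:**
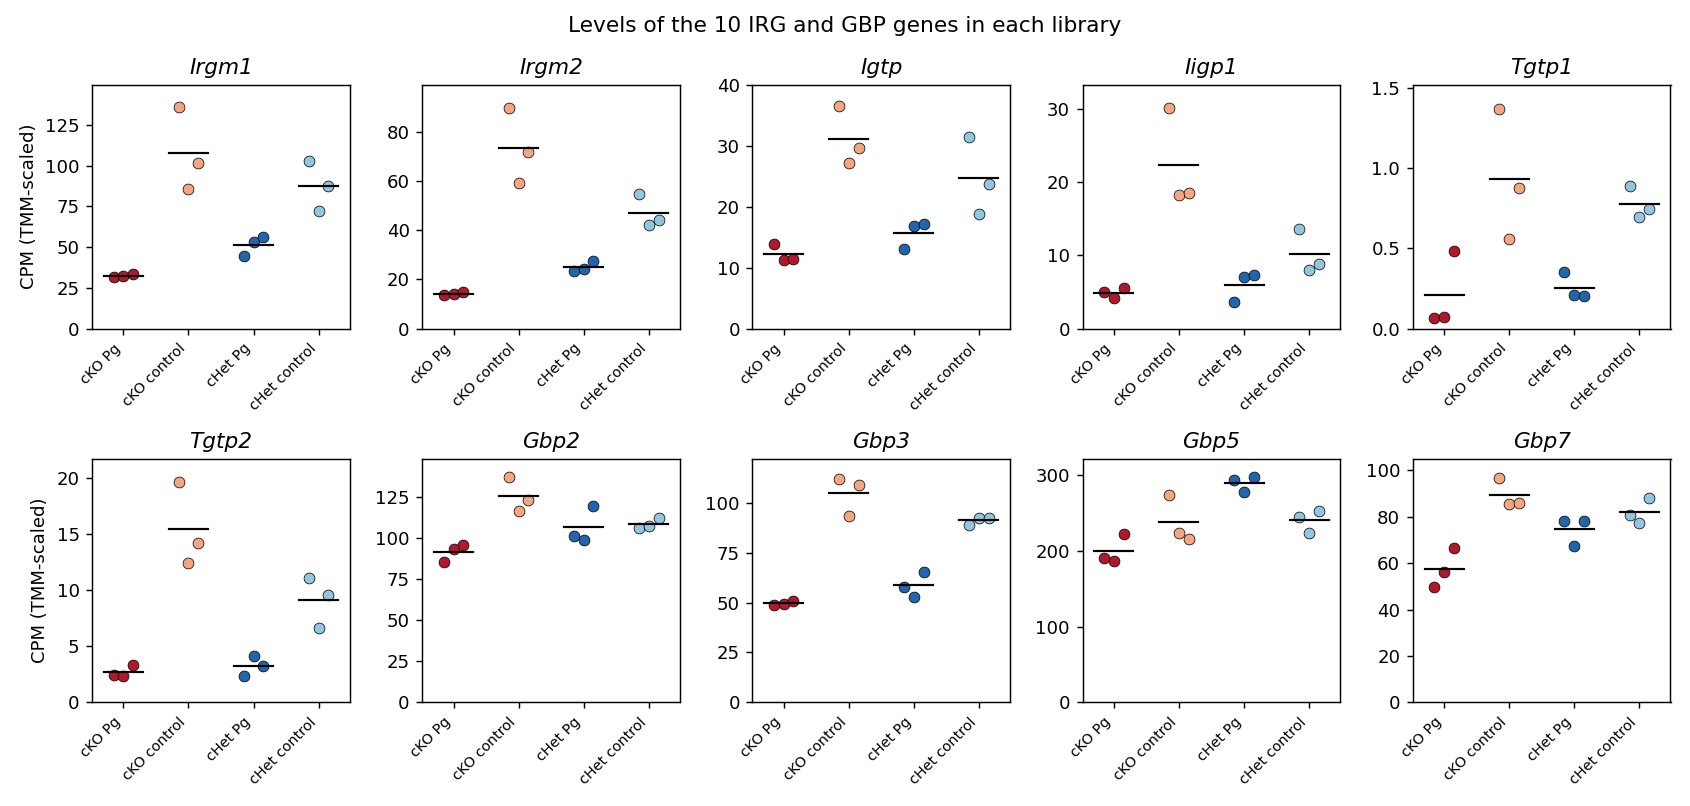
Level of each of the 10 genes in every library, as CPM on TMM-scaled library sizes on the vertical axis, with 1 point per library and a line at the mean of the 3 libraries of a group. The 3 cKO Pg libraries lie below the 3 cKO control libraries for every gene except Gbp5, where they overlap, and only Gbp5 is higher in all cHet Pg than in all cHet control libraries.

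With Pg in cKO macrophages the genes of both families fell together. All 10 of 10 passed the test in the downward direction, where 17.1% of the 13800 genes did, and the median log2 change was -1.54 for the group and 0 for all genes. The falls ran from 1.19-fold for Gbp5 to 5.72-fold for Tgtp2. The libraries of the 2 groups did not overlap for 9 of the 10 genes, a pattern that 23.1% of all genes showed in that direction. In cHet macrophages 6 of the 10 fell, against 18% of all genes, and Gbp5 alone rose, where 18% of all genes did. The median change in cHet was -0.7 for the group and -0.01 for all genes. The 2 Pg comparisons share no libraries.

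The regulatory IRGM genes fell in both genotypes. Irgm1, whose protein also acts in autophagy and keeps effector GTPases off host membranes, stood at 31.5, 32.4 and 33.8 CPM in cKO Pg libraries, against 136, 85.7 and 102 CPM in cKO control libraries. It stood at 44.8, 52.9 and 56.5 CPM in cHet Pg, against 103, 72.3 and 87.3 CPM in cHet control libraries. The Pg and control libraries did not overlap in either genotype, and the log2 change was -1.73 ± 0.18 (adjusted p 3.47e-05) in cKO and -0.77 ± 0.17 (adjusted p 0.00593) in cHet.

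Irgm2, a Golgi-associated regulator, also fell in both genotypes. Its level was 13.7, 13.9 and 14.9 CPM in cKO Pg libraries, against 89.8, 59.1 and 71.7 CPM in cKO control libraries. In cHet Pg it was 23.4, 24.4 and 27.5 CPM, against 54.6, 42.2 and 44.3 CPM in cHet control libraries. All 3 cKO Pg libraries thus lay below all cHet Pg libraries, while all 3 cKO control libraries lay above all cHet control libraries. Irgm2 fell by 5.19-fold with Pg in cKO (log2 change -2.38 ± 0.15, adjusted p 3.34e-08) and by 1.87-fold in cHet (-0.91 ± 0.14, adjusted p 0.000204). Igtp, the other regulator, averaged 12.1 ± 1.54 CPM in cKO Pg, against 31.1 ± 4.82 CPM in cKO control, and 15.7 ± 2.27 CPM in cHet Pg, against 24.7 ± 6.38 CPM in cHet control (SD, n = 3 each). Its fall was 2.56-fold in cKO (adjusted p 7.91e-05) and 1.57-fold in cHet (adjusted p 0.0125), and without cHet Pg library 1 the call in cHet was lost (adjusted p 0.0533).

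The effector IRGs Iigp1 and Tgtp2 fell by 4.53-fold and 5.72-fold in cKO. Iigp1, which loads onto the vacuoles of parasites such as Toxoplasma, stood at 5.04, 4.20 and 5.50 CPM in cKO Pg libraries, against 30.1, 18.2 and 18.6 CPM in cKO control libraries. In cHet Pg it stood at 3.58, 7.11 and 7.37 CPM, against 13.6, 8.04 and 8.78 CPM in cHet control libraries. The libraries were separate in both genotypes, but only in cKO did the difference pass the test, with a log2 change of -2.18 ± 0.31 (adjusted p 0.000219). In cHet the log2 change was -0.75 ± 0.31 with an adjusted p of 0.0813, and DESeq2 called it (adjusted p 0.0208), as did the fit on library size alone (-0.99, adjusted p 0.0177). Tgtp2, an effector that also coats vacuoles, stood at 2.42, 2.35 and 3.30 CPM in cKO Pg libraries, against 19.6, 12.4 and 14.2 CPM in cKO control libraries. It was at 2.32, 4.15 and 3.22 CPM in cHet Pg, against 11.1, 6.58 and 9.53 CPM in cHet control libraries. Every Pg library was lower than every control library, and the log2 change was -2.52 ± 0.25 in cKO (adjusted p 1.55e-06) and -1.49 ± 0.25 in cHet (adjusted p 0.000265).

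Tgtp1, the near-copy of Tgtp2, had only 1, 1 and 7 counts in cKO Pg libraries and 5, 3 and 3 counts in cHet Pg libraries, against 23, 9 and 15 counts in cKO control and 16, 12 and 12 counts in cHet control libraries. Its log2 change was -2.14 ± 0.6 in cKO (adjusted p 0.0103) and -1.59 ± 0.59 in cHet (adjusted p 0.0439). Both calls rested on few reads: the cKO call was lost without cKO control library 1 or without cKO Pg library 1 or 2, with adjusted p up to 0.0533. Its size also moved, to -3.62 without cKO Pg library 3, which held 7 counts, and to -1.72 without cKO Pg library 1. The cHet call was lost without any 1 of the 6 cHet libraries or cKO control library 3, with adjusted p up to 0.131, and DESeq2 gave 0.0556. With the counts of Tgtp1 and Tgtp2 summed into 1 row, the log2 change was -2.49 ± 0.25 in cKO (adjusted p 2.41e-06) and -1.5 ± 0.25 in cHet (adjusted p 0.000293), close to that of Tgtp2 alone.

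Among the GBPs, which help to open vacuoles and to recruit caspases, Gbp3 had the largest fall. Gbp3 stood at 48.7, 49.3 and 50.8 CPM in cKO Pg libraries, against 112, 93.2 and 109 CPM in cKO control libraries, and at 57.8, 52.8 and 65.2 CPM in cHet Pg, against 88.8, 92.4 and 92.4 CPM in cHet control libraries. Both pairs of groups were separate, and the log2 change was -1.08 ± 0.08 in cKO (adjusted p 1.79e-08) and -0.64 ± 0.08 in cHet (adjusted p 8.82e-06). Gbp2, a GBP that targets bacterial and parasite vacuoles, averaged 91.2 ± 5.56 CPM in cKO Pg, against 125 ± 11 CPM in cKO control, and 106 ± 11.1 CPM in cHet Pg, against 108 ± 3.56 CPM in cHet control (SD, n = 3 each). It fell in cKO, with a log2 change of -0.46 ± 0.08 (adjusted p 0.000268), and in cHet its log2 change was -0.03 ± 0.08 (adjusted p 0.797). Gbp7 averaged 57.6 ± 8.43 CPM in cKO Pg, against 89.5 ± 6.31 CPM in cKO control, and 74.7 ± 6.14 CPM in cHet Pg, against 82.1 ± 5.58 CPM in cHet control (SD, n = 3 each). It also fell in cKO (-0.64 ± 0.1, adjusted p 7.03e-05), and in cHet its log2 change was -0.14 ± 0.09 (adjusted p 0.291). On library size alone, both genes were also called as falls in cHet, with -0.28 for Gbp2 (adjusted p 0.00718) and -0.38 for Gbp7 (adjusted p 0.00224), beside the -0.25 by which that scaling shifts the median gene.

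Gbp5, which promotes assembly of the NLRP3 inflammasome, had opposite signs in the genotypes. It stood at 191, 186 and 222 CPM in cKO Pg libraries, against 274, 223 and 216 CPM in cKO control libraries, and at 293, 278 and 298 CPM in cHet Pg, against 245, 224 and 253 CPM in cHet control libraries. The cKO groups overlapped, and the cHet groups did not. The log2 change was -0.25 ± 0.09 in cKO (adjusted p 0.0365) and 0.27 ± 0.09 in cHet (adjusted p 0.0235). Neither call was firm: the fall in cKO was lost without cKO control library 1 (-0.14, adjusted p 0.211) or without cKO Pg library 1 or 2. That fall was also lost when only the 2 cKO groups were fitted (-0.25, adjusted p 0.0675). The rise in cHet was lost on library size alone (0.03, adjusted p 0.824), and also without cHet control library 2 or cHet Pg library 1 or 3, with adjusted p up to 0.107.

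**Figure D3:**
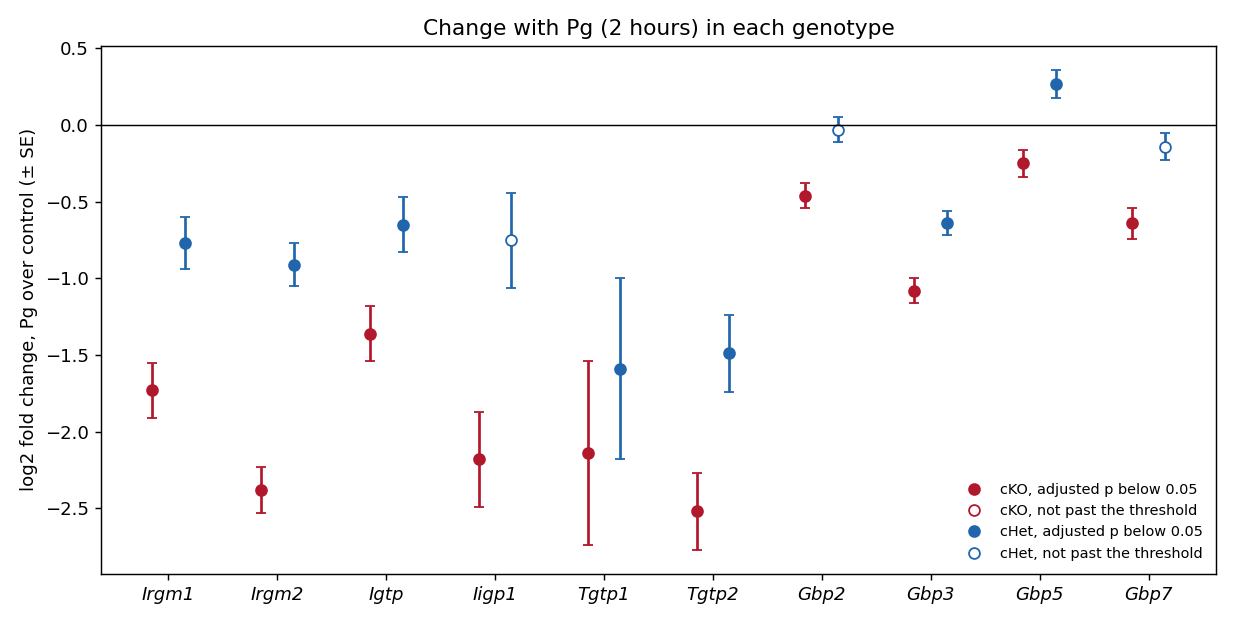
Log2 fold change of the 10 genes with Pg over control in cKO (red, left of each pair) and cHet (blue), with bars of 1 standard error from the fit over 12 libraries; filled points passed an adjusted p of 0.05. Every cKO point lies below its cHet partner, from the IRGs on the left with changes down to -2.52 to the GBPs on the right, of which Gbp5 alone lies above 0 in cHet.

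Whether the Pg response differed between genotypes was tested as the interaction, that is, the log2 change in cKO less the log2 change in cHet. The estimate was below 0 for 10 of 10 genes, where 50.6% of all genes had that sign. Its median was -0.62 for the group and 0 for all genes. Related lists, examined further on, were alike. The median was also -0.62 for 24 type I interferon-stimulated antiviral genes, with 23 below 0. It was -0.58 for 12 other IRG and GBP genes, with 10 below 0. After adjustment over all genes, 1 of the 10 passed, where 0.261% of all genes passed in that direction. It was Irgm2, with -1.47 ± 0.2 (adjusted p 0.00625), a call kept without each of the 12 libraries in turn (-1.61 to -1.3, adjusted p 0.000818 to 0.0365). At an unadjusted p below 0.05, 9 of the 10 were lower, against 6.07% of all genes, the exception being Tgtp1. The estimates of the genes short of the adjusted threshold were -1.42 ± 0.44 for Iigp1 (adjusted p 0.194), -1.03 ± 0.36 for Tgtp2 (0.224), -0.96 ± 0.25 for Irgm1 (0.135) and -0.7 ± 0.26 for Igtp (0.255). The GBPs lay close together, between -0.52 ± 0.12 for Gbp5 (adjusted p 0.066) and -0.43 ± 0.11 for Gbp2 (adjusted p 0.111). Tgtp1 had -0.55 ± 0.89 (adjusted p 0.874). The count of calls depended on the processing. DESeq2 called 4 of the 10 (Irgm2, Irgm1, Iigp1 and Gbp5) and 201 of all genes, against 99 by edgeR. With no filter on low counts, edgeR called 8 of the 10, all but Irgm1 and Tgtp1, and 389 of 27404 genes. The 10 genes were read in the same libraries and are not independent of each other, so their common sign is not 10 separate observations.

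The interaction is also, by construction, the difference between the genotypes with Pg less the one without, and uses the same libraries. In control cultures, cKO over cHet, 2 of the 10 were higher, where 2.13% of all genes were. Irgm2 was higher by 0.64 ± 0.13 on the log2 scale (adjusted p 0.0131), at 73.5 ± 15.4 CPM in cKO control, against 47 ± 6.65 CPM in cHet control (SD, n = 3 each). Iigp1 was higher by 1.13 ± 0.28 (adjusted p 0.0434), at 22.3 ± 6.78 CPM in cKO control, against 10.2 ± 3.04 CPM in cHet control. The estimate was above 0 for 9 of the 10, where 50.6% of all genes had that sign, the exception being Gbp5 (-0.02 ± 0.09, adjusted p 0.951). For 5 genes, Irgm2, Iigp1, Tgtp2, Gbp2 and Gbp3, every cKO control library lay above every cHet control library, as did 11.8% of all genes. Tgtp2 missed the threshold (0.77 ± 0.22, adjusted p 0.0528) and was called by DESeq2 (adjusted p 0.0236), with no filter on low counts (9.43e-05), on library size alone (0.0454) and in 5 of the 12 fits that each left out 1 library. The control calls were fragile. Both were lost without cHet control library 2 or 3 and when only the 2 control groups were fitted (adjusted p 0.088 for Irgm2 and 0.0851 for Iigp1). The Iigp1 call, near the threshold, was also lost without 8 of the other 10 libraries, the exceptions being cHet control library 1 and cHet Pg library 1, and with the replicate number as a block (adjusted p 0.0626). Library 1 of cKO control, the highest of its group in 10 of 10 genes, was 1 of these 8: without it the difference was 0.85 for Iigp1 (adjusted p 0.0924).

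Under Pg, cKO over cHet, the sign was the other way. The estimate was below 0 for 10 of 10 genes, where 50% of all genes had that sign, and 2 of the 10 passed, where 1.2% of all genes were lower. Gbp5 was lower in cKO, with a log2 difference of -0.54 ± 0.09 (adjusted p 0.00203), at 200 ± 19.3 CPM in cKO Pg, against 290 ± 10.2 CPM in cHet Pg (SD, n = 3 each), and was called without each of the 12 libraries in turn. Irgm2 was lower as well, by a log2 difference of -0.82 ± 0.15 (adjusted p 0.0108), at 14.2 ± 0.66 CPM in cKO Pg, against 25.1 ± 2.16 CPM in cHet Pg, a call lost without cHet Pg library 3 or cKO Pg library 1 or 2 (adjusted p 0.0556 to 0.0697). For 6 genes, Irgm1, Irgm2, Gbp2, Gbp3, Gbp5 and Gbp7, every cKO Pg library lay below every cHet Pg library, as did 8.51% of all genes. Irgm1 (-0.66 ± 0.18, adjusted p 0.137) and Gbp7 (-0.38 ± 0.1, adjusted p 0.061) missed the threshold and were called by DESeq2 (adjusted p 0.0032 and 0.0299). The effectors Iigp1, Tgtp1 and Tgtp2 had estimates between -0.29 and -0.26 with adjusted p from 0.79 to 0.926. Averaged over treatments, 1 of the 10 differed, where 2.78% of all genes were lower: Gbp5, with -0.28 ± 0.06 (adjusted p 0.0129). The lower stromal marker sum and the lower Lyz2 level of cKO, given above, stand beside each of these genotype differences, and their part in them was not tested.

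**Figure D4:**
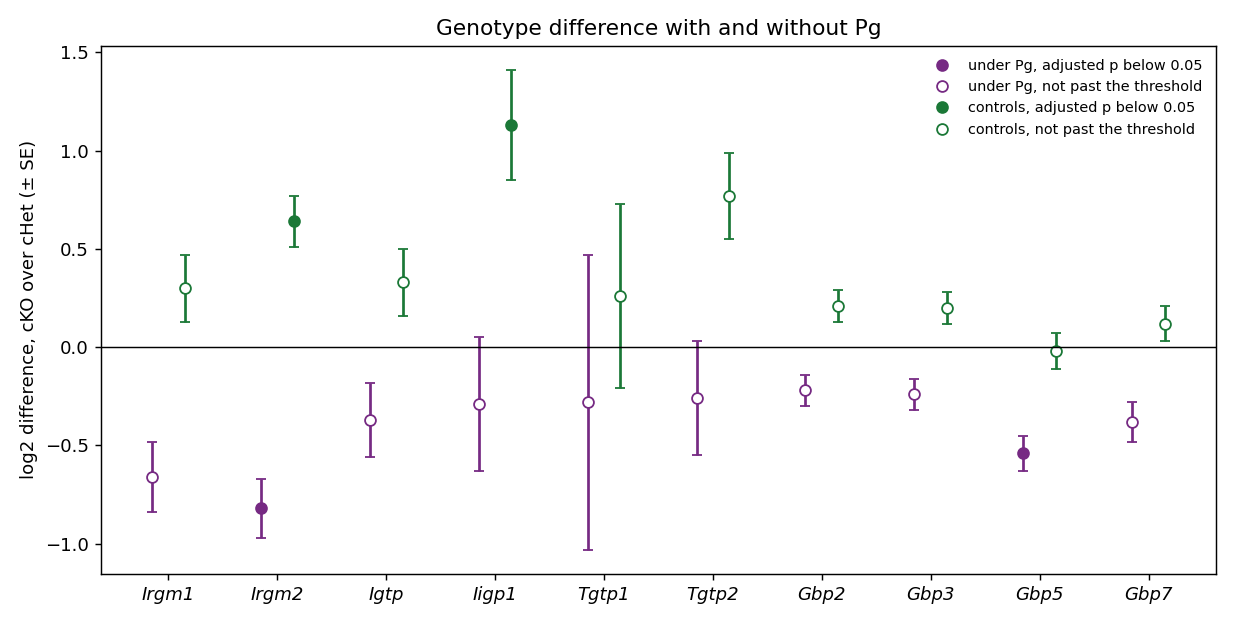
Log2 difference of the 10 genes, cKO over cHet, under Pg (purple, left of each pair) and in controls (green), with bars of 1 standard error; filled points passed an adjusted p of 0.05. All purple points lie below 0 and all green points except that of Gbp5 above it, and Irgm2 is filled in both, at -0.82 under Pg and 0.64 in controls.

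The other IRG and GBP genes of the mouse were examined as a list of 16, of which 12 could be tested. With Pg, 8 of the 12 fell in cKO (median -1.17), where 17.1% of all genes did. In cHet 5 fell (median -0.38), where 18% of all genes did. The rest did not pass in either genotype. Named by their mean level, the 6 most abundant were Irgq, Ifi47, Gm5431, Gm12250, Gbp9 and 9930111J21Rik2. Gm12250, listed as a processed pseudogene in the deposited table, averaged 5.54 ± 1.22 CPM in cKO Pg, against 40 ± 10.2 CPM in cKO control, and 11.4 ± 2.31 CPM in cHet Pg, against 27.6 ± 4.88 CPM in cHet control (SD, n = 3 each). It fell in both genotypes, with log2 changes of -2.85 ± 0.24 in cKO (adjusted p 3.85e-06) and -1.27 ± 0.22 in cHet (adjusted p 0.000979), with an interaction of -1.57 ± 0.33 (adjusted p 0.0632). Ifi47, an interferon-induced IRG gene, fell as well, with -1.3 ± 0.17 in cKO (adjusted p 0.00016) and -0.64 ± 0.17 in cHet (adjusted p 0.0125). Gm5431 (-2.27 ± 0.19 and -1.57 ± 0.18) and 9930111J21Rik2 (-1.58 ± 0.17 and -1.39 ± 0.17) fell in cKO and in cHet. Irgq, an IRG-like gene (0.31 ± 0.13 in cKO and 0.29 ± 0.13 in cHet), and Gbp9 (-0.31 ± 0.17 and -0.09 ± 0.17) did not pass in either genotype. By edgeR 0 of the 12 passed in the interaction and 0 in the genotype difference under Pg. At an unadjusted p below 0.05, 6 and 4 were lower (6.07% and 6.56% of all genes). DESeq2 called 1 each, and 201 and 345 of all genes. Under Pg the genotype estimate was below 0 for 11 of the 12 (median -0.39), where 50% of all genes had that sign. In controls it was above 0 for 8 (median 0.17), against 50.6% of all genes. In controls Gm4951 was higher in cKO by 1.1 ± 0.27 (adjusted p 0.0302).

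The interferon genes themselves, whose products induce these GTPases, had few reads. Ifng, interferon gamma, had 0 counts in 11 of 12 libraries and 1 count in cHet Pg library 3, and 0 counts allow a level of up to 0.167 to 0.213 CPM per library. Ifnb1, interferon beta, had 12, 10 and 3 counts in cKO Pg libraries, against 7, 3 and 6 in cKO control libraries, and 3, 15 and 15 counts in cHet Pg, against 2, 3 and 3 in cHet control libraries. It rose in cHet (2.22 ± 0.68, adjusted p 0.0166), and in cKO its log2 change was 0.83 ± 0.63 (adjusted p 0.343). Il27, a cytokine subunit, rose in both genotypes, by 0.65 ± 0.2 in cKO (adjusted p 0.0257) and by 1.57 ± 0.2 in cHet (adjusted p 6.82e-05). Its partner subunit Ebi3 rose by 0.5 ± 0.13 in cKO (adjusted p 0.00806) and had a log2 change of 0.34 ± 0.13 in cHet (adjusted p 0.0516). Of 12 ligand genes listed, only Ifnb1, Il27 and Ebi3 had enough reads for a test.

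The next list held 19 genes of interferon receptors, kinases, transcription factors and feedback inhibitors. With Pg in cKO 7 rose and 6 fell, where 16.9% of all genes rose and 17.1% fell. In cHet 6 rose and 6 fell, where 18% of all genes went each way. Stat2, a transcription factor of type I interferon signalling, fell in both genotypes, with log2 changes of -1.31 ± 0.14 in cKO (adjusted p 1.38e-05) and -0.43 ± 0.14 in cHet (adjusted p 0.0277), with an interaction of -0.88 ± 0.19 (adjusted p 0.066). Irf1, a transcription factor that switches on many GBP genes, went the other way. It rose by 0.93 ± 0.09 in cKO (adjusted p 2.44e-07) and 0.33 ± 0.09 in cHet (adjusted p 0.00566), and was the only gene of the list called in the interaction (0.6 ± 0.12, adjusted p 0.0267), where 0.457% of all genes were higher. Its level was 829 ± 47.3 CPM in cKO Pg, 434 ± 54.8 CPM in cKO control, 930 ± 80.4 CPM in cHet Pg and 739 ± 39.6 CPM in cHet control (SD, n = 3 each), so the control groups were apart (-0.77 ± 0.09, adjusted p 2.75e-05). The feedback inhibitor Socs3 rose by 3.01 ± 0.12 in cKO and 2.69 ± 0.12 in cHet. Socs1, which blocks JAK kinases below the interferon receptors, rose by 0.62 ± 0.21 in cKO (adjusted p 0.0343) and 1.53 ± 0.2 in cHet (adjusted p 6.7e-05). The receptor chain Ifnar2 rose by 0.47 ± 0.06 in cKO and 0.55 ± 0.06 in cHet. Irf8, a myeloid IRF, fell in cHet (-0.41 ± 0.07, adjusted p 9.78e-05) and had -0.15 ± 0.07 in cKO (adjusted p 0.086).

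Type I interferon-stimulated antiviral genes mostly fell with Pg in cKO. Of 24 tested, 16 fell with Pg in cKO (median -0.97), where 17.1% of all genes did, and 8 did not pass. In cHet 10 fell and 1 rose (median -0.38), where 18% of all genes went each way. Mx2, a dynamin-like GTPase, fell in both, with log2 changes of -2.59 ± 0.25 in cKO (adjusted p 2.39e-05) and -1.22 ± 0.23 in cHet (adjusted p 0.00195). It was the 1 gene of the list lower in cKO under Pg (-1.36 ± 0.26, adjusted p 0.0282), where 1.2% of all genes were. Further falls, in cKO and in cHet, were those of Ifit1, which binds foreign RNA (-2.63 ± 0.27 and -1.29 ± 0.26), Mx1 (-2.83 ± 0.36 and -1.3 ± 0.34) and Oas2 (-0.9 ± 0.09 and -0.57 ± 0.09). The RNA sensor gene Ddx58 also fell, with -0.76 ± 0.1 in cKO (adjusted p 1.41e-05) and -0.52 ± 0.1 in cHet (adjusted p 0.000544). Isg15, which encodes a ubiquitin-like protein, fell in cKO (-1.27 ± 0.19, adjusted p 0.000142) and had -0.29 ± 0.18 in cHet (adjusted p 0.246). By edgeR 0 of the 24 passed in the interaction, and 9 were lower at an unadjusted p below 0.05, against 6.07% of all genes. DESeq2 called 4, and 201 of all genes. In controls 0 of the 24 differed between genotypes by edgeR, whether p was adjusted or not, and DESeq2 also called 0. The estimate in controls was above 0 for 22 of the 24 (median 0.13), where 50.6% of all genes had that sign. Under Pg it was below 0 for 23 (median -0.49), against 50% of all genes.

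**Figure D5:**
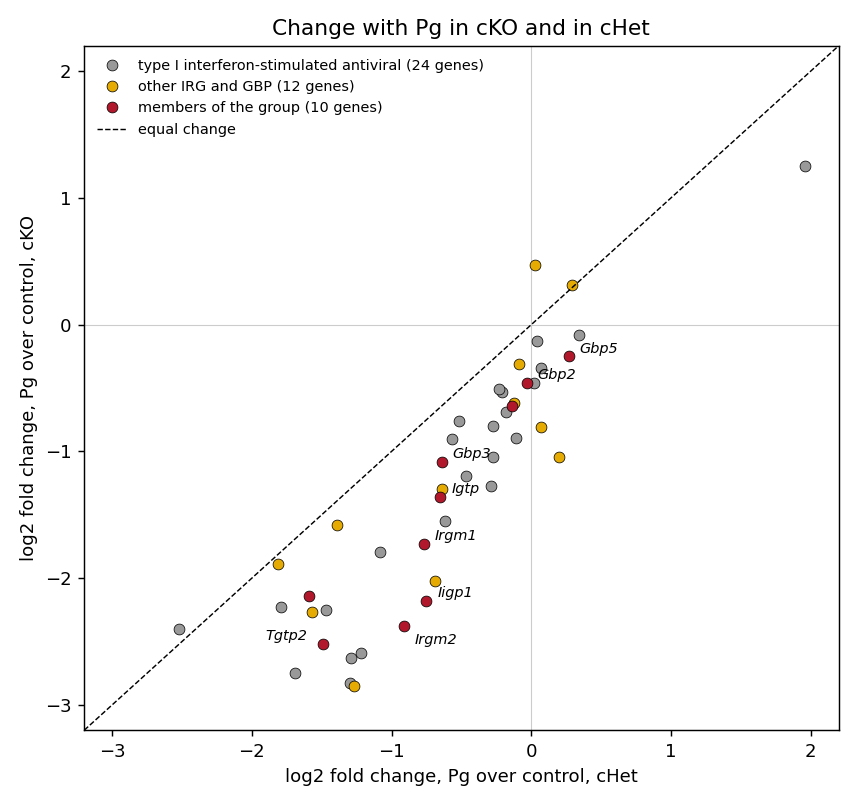
Log2 change with Pg in cKO (vertical axis) against that in cHet (horizontal axis) for the 10 IRG and GBP genes (red), 12 other IRG and GBP genes (yellow) and 24 antiviral genes (grey), with a dashed line where both changes are equal. All red points lie below the line, Irgm2 at -2.38 in cKO and -0.91 in cHet, and most yellow and grey points do too.

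Other genes induced by interferon gamma were counted as a list. Of 19 tested, 4 rose and 10 fell with Pg in cKO, where 16.9% of all genes rose and 17.1% fell, and 5 rose and 3 fell in cHet, where 18% of all genes went each way. The median log2 change of the list was -0.33 in cKO and -0.01 in cHet. Parp14, an interferon-induced ADP-ribosyltransferase, fell in cKO (-0.99 ± 0.08, adjusted p 6.44e-08), had -0.14 ± 0.08 in cHet (adjusted p 0.191), and passed in the interaction (-0.85 ± 0.12, adjusted p 0.00338). Nos2, the inducible nitric oxide synthase, averaged 1.54 ± 0.472 CPM in cKO Pg, against 3.02 ± 0.269 CPM in cKO control, and 9.53 ± 4.08 CPM in cHet Pg, against 3.27 ± 0.206 CPM in cHet control (SD, n = 3 each). It also passed in the interaction (-2.5 ± 0.43, adjusted p 0.0116). The immunoproteasome genes Psmb9 (-0.58 ± 0.07) and Psmb10 (-0.33 ± 0.07) and the peptide transporter gene Tap1 (-0.79 ± 0.13) fell in cKO, with adjusted p of 1.1e-05, 0.00236 and 0.00036. In cHet their log2 changes were -0.15 ± 0.07, 0.1 ± 0.07 and -0.25 ± 0.13, none past the threshold. Gch1, which makes the cofactor of nitric oxide synthase, rose by 0.91 ± 0.07 in cKO and 0.84 ± 0.07 in cHet.

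The proteins that act with IRGs and GBPs at vacuoles, such as autophagy conjugation factors, ubiquitin ligases and inflammasome caspases, were examined as a list of 19. With Pg, 5 rose and 6 fell in cKO, where 16.9% of all genes rose and 17.1% fell. In cHet 5 rose and 3 fell, where 18% of all genes went each way. The median log2 change of the list was 0.04 in cKO and 0.06 in cHet. Trim21, a ubiquitin ligase and antibody receptor, averaged 11.1 ± 0.586 CPM in cKO Pg, against 28.3 ± 2.61 CPM in cKO control, and 14.6 ± 0.606 CPM in cHet Pg, against 22 ± 0.515 CPM in cHet control (SD, n = 3 each). Its log2 change was -1.35 ± 0.1 in cKO and -0.59 ± 0.1 in cHet, and it alone of the list passed in the interaction (-0.76 ± 0.14, adjusted p 0.0116). The ubiquitin ligase Rnf213 fell in cKO (-0.41 ± 0.08, adjusted p 0.000642) and had -0.17 ± 0.08 in cHet (adjusted p 0.0993). The autophagy receptor Sqstm1 rose by 1.53 ± 0.06 and 1.47 ± 0.06, Casp4, the caspase that senses cytosolic lipopolysaccharide, by 0.76 ± 0.1 and 0.91 ± 0.1, and Nlrp3 by 1.04 ± 0.08 and 0.7 ± 0.08, in cKO and in cHet. Casp1 rose in cHet (0.37 ± 0.08, adjusted p 0.0018) and had -0.04 ± 0.08 in cKO (adjusted p 0.744).

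The 10 genes were compared with every other tested gene by the correlation of log2 CPM over the 12 libraries with the mean standardised profile of the group. As a description, the 5 genes most like it were Stat2 (Pearson r 0.978), Znfx1 (0.977), Gm12250 (0.973), Rnf114 (0.972) and Parp9 (0.971), all over the same 12 libraries and 4 groups. Stat2 averaged 45.8 ± 1.28 CPM in cKO Pg, 113 ± 21.9 CPM in cKO control, 68.3 ± 5.97 CPM in cHet Pg and 91.6 ± 14.6 CPM in cHet control (SD, n = 3 each), the same order of groups as Irgm1 and Irgm2. Parp9, which pairs with a ubiquitin ligase in interferon signalling, averaged 38.6 ± 4.4, 83.5 ± 4.59, 48.3 ± 2.37 and 69.3 ± 8.03 CPM in the groups in that order. Within the group, Irgm1 (0.985) and Irgm2 (0.984) were closest to the mean profile they contribute to, and Gbp5 (0.411) was farthest. The next lowest, Tgtp1, stood at 0.898.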

How the data were processed

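Poly-A RNA of 12 mouse macrophage cultures was sequenced, and the authors deposited raw counts per gene in 1 table with gene lengths, all of whose sample columns were used (0 unused). The submitters' processing notes name fastp, HISAT2 (2.0.5), featureCounts (1.5.0-p3) and build mm10. Which annotation was counted, whether strand was used and what was done with multi-mapping reads is not given in the sources used here. Per the labels' protocols, fragments of 370 to 420 bp were selected.

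The tests were run with edgeR 4.0.16 under R 4.3.3. Genes were kept by filterByExpr (13800 of 54532), libraries scaled by TMM, 1 coefficient per group fitted to all 12 libraries by robust glmQLFit, and contrasts tested by the quasi-likelihood F test, with Benjamini-Hochberg adjustment over all 13800 genes and a threshold of 0.05. Where no other tool is named, an adjusted p is that of this test. A log2 change is followed by ± its standard error, obtained by dividing the change by the square root of its F. Levels are CPM on TMM-scaled library sizes, given as mean ± SD. Alternatives were DESeq2 1.42.0, its size factors in edgeR, library size alone, no filter, a filter of 10 counts in 6 libraries, a replicate block, a fit of only the 2 groups compared, a fit without the robust option, Tgtp1 and Tgtp2 summed, and each library left out in turn. With 1 library left out of a group, the fit shares 1 spread over all groups. The scripts were tested on simulated data.

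Start-site windows came from RefSeq (GRCm38.p6), matched by symbol for 9 of 10 genes; transcript overlaps came from the GENCODE M21 annotation of the same build. Protein sequences were not used here. The genes and lists were chosen with earlier results of these data known. Named in the text are the 10 genes, Itga9, the 6 most abundant other IRG and GBP genes, up to 4 genes per pathway list with the smallest p in the interaction and up to 4 in either Pg comparison, and the 5 genes with the most similar profile. Other genes (Gm4951, Gm12185, Gm43802, Lyz2, Lum, Fn1, Cd4, Bst2) were named after their values were seen. The labels name no batch.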

Additional observations from a re-analysis of the deposited data

Results flagged for a closer look

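The Pg response of Irgm2 differed between the genotypes by the test of the difference itself: its log2 change was -2.38 ± 0.15 in cKO and -0.91 ± 0.14 in cHet, a difference of -1.47 ± 0.2 (edgeR adjusted p 0.00625). The levels behind it were 14.2 ± 0.66 CPM in cKO Pg and 73.5 ± 15.4 CPM in cKO control, and 25.1 ± 2.16 CPM in cHet Pg and 47 ± 6.65 CPM in cHet control (SD, n = 3 each), so the control groups and the Pg groups both contributed to it. Irgm2 shares 4.39% of its exonic bases with Igtp, whose own difference was -0.7 ± 0.26 (edgeR adjusted p 0.255).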

How the results depend on the processing

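In the interaction 1 of the 10 genes passed, against 8 with no filter on low counts and 4 with DESeq2, and over all genes 99 passed, against 389 and 201; the cause was not tested. With no filter, 4 genes differed in controls (1101 of all genes, against 711) and 507 of all genes under Pg (against 255); DESeq2 called 4 members and 345 of all genes under Pg. In controls the count of 2 became 1 with the replicate block and 0 when only those 2 groups were fitted, which leaves fewer libraries to estimate the spread. For Pg in cKO the count of 10 became 8 when only the 2 cKO groups were fitted. In that fit 4347 of 13077 genes passed, against 4687 of 13800. Same-numbered libraries correlated, after removal of group means, by -0.254 to 0.319. In the control comparison the values were 0.319, 0.0512 and 0.0603, all above 0 but short of 0.1 in 2 of 3 pairs. The numbers were therefore not taken to pair the samples. Over the 10 genes alone those 3 values were higher, at 0.69, 0.286 and 0.305. Different-numbered control pairs ranged from -0.571 to 0.535 over the 10 genes. The replicate block lost the control call of Iigp1 (adjusted p 0.0626) and changed no other member's call. On library size alone, 19.1% of the Pg calls in cHet and 18.7% of those in cKO were rises, against 50% and 49.7%. Leaving out 1 library gave 4 to 8 calls for Pg in cHet, 8 to 10 for Pg in cKO, 0 to 3 in controls, 1 to 4 under Pg, 1 on average over treatments and 1 to 3 in the interaction. The count for Pg in cHet was 4 without cHet Pg library 1, where Igtp, Tgtp1 and Gbp5 were lost. Signs that changed belonged to values near 0 or to Tgtp1. On average over treatments the difference ranged from -0.04 to 0.04 for Gbp2, -0.05 to 0.02 for Gbp3, -0.1 to 0.09 for Igtp and -0.75 to 0.2 for Tgtp1, and that of Gbp2 was 0 on library size alone. For Gbp5 in controls it ranged from -0.13 to 0.05, for Gbp2 with Pg in cHet from -0.12 to 0.02, and for Tgtp1 from -0.11 to 0.52 in controls and -1.76 to 0.13 under Pg. Depth limits Tgtp1, Ifnb1 and Ifng. No other called member changed sign under any alternative.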
